A study of Mus musculus with 8 samples.

Results

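The genes described here are p53 itself (Trp53), its inhibitors Mdm2 and Mdm4, and 7 genes that p53 is known to activate or that act close to it: Trp53inp1, Ccng1, Sesn1, Sesn2, Zmat3, Phlda3 and Btg2. These 10 genes were found by symbol among the 55536 genes of the count table, and 9 of them had enough counts to be tested, Phlda3 being the exception. The set was chosen by function and on the measured counts of these libraries, because Trp53inp1 and Ccng1 rose after the knockdown. The difference between treatments in these genes is therefore given as a description, with no p-value, and calls among them are only counted beside the share over all genes. Their levels and their difference between batches were not part of that choice, but the lists of other pathway genes, like the 10 genes, were drawn up with earlier results of these data known. All libraries came from alphaTC6, a mouse pancreatic alpha cell line labelled wild type, so each group is a set of transfections of 1 cell line. The control group received a scramble siRNA, and the other group several pooled small interfering RNAs (siRNAs) that target Klf4, the gene of a zinc finger transcription factor. Both groups underwent the same reverse transfection with RNAiMax Lipofectamine for 48 h, and there were 4 libraries of polyadenylated RNA in each. Batch 1 held scramble replicates 1 and 2 and Klf4 siRNA replicates 1, 2 and 4, and batch 2 held scramble replicates 3 and 4 and Klf4 siRNA replicate 3. What the batches differed in was not stated. The submitters call the libraries biological replicates without naming separate cultures, so that p-values measure the spread between these libraries.

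The p53 protein is a transcription factor that is made all the time and kept scarce by its own target Mdm2, a ubiquitin ligase that marks it for degradation, together with Mdm4, a related protein that covers its activation domain. After DNA damage or other stress this restraint is lifted, and p53 activates genes for cell cycle arrest, DNA repair, metabolism and cell death, so that much of the pathway is controlled by protein stability and not by the Trp53 transcript. A limit of the cell model bears on these genes: alphaTC lines derive from pancreatic tumours of mice carrying the simian virus large T antigen, a protein known to bind p53. The activity of p53 protein was not measured here, and each value below concerns messenger RNA.

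Library totals ran from 45954151 to 64185987 counts. Klf4, the targeted gene, fell from 39.2, 35.1, 46.3 and 46.8 CPM (counts scaled by library total and TMM factor) in scramble replicates 1 to 4 to 12.5, 11.5, 19.8 and 18.8 CPM in Klf4 siRNA replicates 1 to 4, or by -1.33 on the log2 scale (SE 0.17, edgeR quasi-likelihood test, adjusted p = 0.0083). Without scramble replicate 1, or in batch 1 alone, Klf4 did not pass the threshold, the largest adjusted p being 0.104. Batch separated along the first principal component, with 59.9% of the variance. All 6 alpha cell markers were expressed, with summed levels of 2180 to 10064 CPM in scramble and 2011 to 8812 CPM in Klf4 siRNA libraries. Of the 6 beta cell markers, Ins1, Ins2, Ucn3 and Pdx1 were at 0 in every library, whereas Mafa measured 2.70 to 3.76 CPM and Iapp had 2 to 19 counts. The listed markers of fibroblasts summed to 18.6 to 20.99 CPM in scramble and 19.2 to 26.9 CPM in Klf4 siRNA libraries, those of immune cells to 2.02 to 3.16 and 1.91 to 2.71 CPM, those of delta and PP cells to 0.0173 to 0.0637 and 0.0949 to 0.203 CPM, and those of endothelial cells to at most 0.437 CPM. The part of these markers in the results below was not tested.

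Levels can be compared between genes only per length, so counts were also expressed as counts per kilobase of exon on that same scale (RPKM). Among the 10 genes, Sesn2 and Btg2 had the highest levels in scramble cells, at 60.1 ± 5.62 and 52.7 ± 2.84 RPKM (SD, n = 4), against a median of 4.36 RPKM over all tested genes. Sesn2 encodes Sestrin 2, a stress-induced protein that restrains the growth kinase mTORC1, and Btg2 an antiproliferative protein that recruits the CCR4-NOT complex to shorten messenger RNA tails. Trp53inp1 followed at 23.4 ± 1.36 RPKM, Ccng1 at 20.8 ± 0.462 RPKM and Mdm2 at 20.8 ± 0.334 RPKM. Trp53 itself stood at 13.4 ± 0.470 RPKM, Zmat3 at 10.1 ± 0.274 RPKM, Sesn1 at 9.92 ± 0.884 RPKM and Mdm4 at 6.73 ± 0.447 RPKM. Phlda3, which encodes a small protein that competes with the kinase Akt for membrane lipids, was barely detected, at 0.0827 ± 0.0745 RPKM. Neighbours in this order whose libraries overlapped were Sesn2 and Btg2, Ccng1 and Mdm2, and Zmat3 and Sesn1. In all 8 libraries each of the other genes lay above the next one in the order. With the length of the longest transcript in place of all exons, Mdm2 rose to 33.6 RPKM, above Trp53inp1 at 27.9 RPKM, and Mdm4 to 14.01 RPKM, above Sesn1 at 10.4 RPKM, so these positions depend on the length used.

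**Figure D1:**
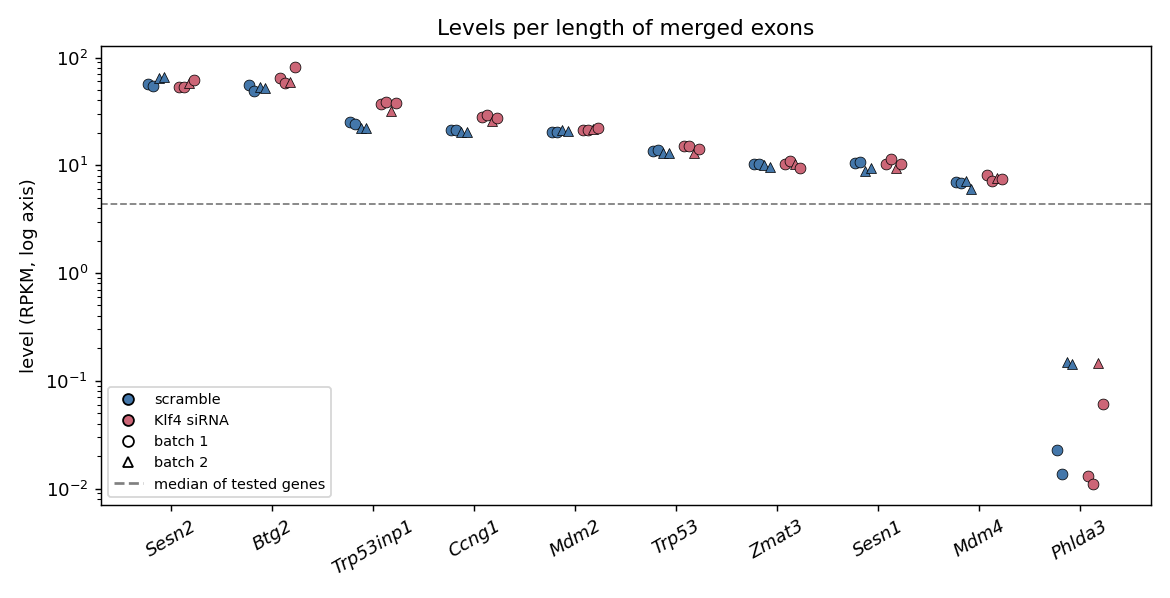
Level of each gene in RPKM on a log axis, with 1 point per library, coloured by treatment. Sesn2 and Btg2 lie highest, and Phlda3 lies far below the other 9 genes.

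The promoters of these genes were read for the sequence that p53 binds, since several are textbook p53 targets, and for a box of the kind that Klf factors bind. The p53 site is made of 2 half-sites of 10 bases, each with a core of C, 2 middle bases and G. RefSeq promoter windows (build GRCm38.p6, 250 bases before to 50 after the annotated start) matched 8 of the 10 genes, not Trp53inp1 and Zmat3, and gave 10 windows because Mdm4 and Sesn1 have 2 each. The closest matches to the full site of 20 bases are printed here because they belong to Ccng1, to Trp53 itself and to Sesn1, and the half-site of Mdm2 because Mdm2 is the inhibitor that p53 induces. Each is written on the strand of its gene, with the core of each half-site in capitals.
Ccng1: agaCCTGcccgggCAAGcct
Trp53: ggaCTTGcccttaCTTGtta
Sesn1: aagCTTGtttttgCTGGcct
Mdm2: gaaCTTGcct
The Ccng1 match lies at chr11:40755462-40755481 on the minus strand, starting at base -195 relative to the RefSeq start of transcription, and departs from the consensus at 1 base. The Trp53 match (chr11:69580284-69580303, plus strand, from base -75) and the match in the second Sesn1 window (chr10:41887266-41887285, plus strand, from base -173) each depart from it at 3 bases. The Mdm2 half-site lies at chr10:117710935-117710944 on the minus strand, from base -186, and has no mismatch. A full match with at most 3 mismatches and intact C and G in both cores was present in 3 of the 10 windows (30%), against 453 of all 32851 windows (1.38%). A half-site with no mismatch was present in 4 of the 10 windows (40%), against 2745 of all windows (8.36%). In 3 of these 4 windows it is part of the full match, so the counts are not separate. The genes were chosen for their place in the p53 pathway, so nothing is read from the excess over all windows. The Klf box, CCNCNCCC on either strand, was present in 8 of the 10 windows (80%), but also in 16251 of all windows (49.5%). The Ccng1 and Trp53 windows held 1 box each, the Mdm4 windows 0 and the other windows 2 to 5, so the box does not set Ccng1 apart. In the Ccng1 window the box lies on the other strand at chr11:40755372-40755391. It is shown in capitals with flanking bases because Ccng1 was 1 of the 2 genes that rose.
Ccng1, Klf box: agagtcGGGCGTGGctcgaa
A match describes letters in the sequence and does not show that a factor binds there.

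Trp53 (chromosome 11, 69580359 to 69591873, plus strand, GRCm38) was close to level across the treatments. It measured 55.3, 56.2, 52.7 and 52.4 CPM in scramble replicates 1 to 4, and 60.6, 60.5, 52.1 and 57.9 CPM in Klf4 siRNA replicates 1 to 4. The groups overlapped, because Klf4 siRNA replicate 3, from batch 2, was the lowest of all 8 libraries. The log2 fold change was 0.06 (SE 0.033), from 54.2 ± 1.90 to 57.8 ± 4.01 CPM (SD, n = 4).

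Mdm2 (chromosome 10, 117688875 to 117710758, minus strand) moved within a narrow range, from 104.0, 104.4, 107.3 and 106.9 CPM in the scramble libraries to 108.2, 107.1, 110.8 and 113.6 CPM after the Klf4 siRNA. All but 1 of the Klf4 siRNA libraries lay above every scramble library, and the log2 fold change was 0.06 (SE 0.029). Mdm4 (chromosome 1, 132959484 to 133030561, minus strand) measured 102.7, 101.0, 104.7 and 89.9 CPM in scramble and 120.4, 105.0, 111.8 and 110.2 CPM in Klf4 siRNA libraries. The Mdm4 groups did not overlap, although scramble replicate 3 and Klf4 siRNA replicate 2 differed little, and the log2 fold change was 0.16 (SE 0.055). Within batches it was 0.13 in batch 1 and 0.20 in batch 2. No exon of the 10 genes overlaps an exon of another annotated gene.

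Trp53inp1 (chromosome 4, 11156431 to 11174379, plus strand) showed the largest difference of the 10 genes. It encodes a stress-induced scaffold protein that binds kinases acting on p53 and also takes part in autophagy. Its level was 161.7, 156.2, 144.8 and 143.6 CPM in the scramble libraries and 241.0, 248.4, 206.9 and 247.0 CPM after the Klf4 siRNA. The lowest Klf4 siRNA library stood well above the highest scramble library. From 151.6 ± 8.82 to 235.8 ± 19.5 CPM (SD, n = 4), the log2 fold change was 0.59 (SE 0.029), or 1.504-fold. It was 0.63 within batch 1 and 0.52 within batch 2, and ranged from 0.56 to 0.64 over 18 alternative fits.

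Ccng1 (chromosome 11, 40748552 to 40755311, minus strand) encodes cyclin G1, which brings the phosphatase PP2A to Mdm2 and so acts on the same loop. It measured 73.9, 75.2, 71.8 and 72.0 CPM in scramble and 98.6, 103.5, 91.3 and 96.4 CPM in Klf4 siRNA libraries. The scramble libraries were tightly grouped and lay below all 4 Klf4 siRNA libraries. The log2 fold change was 0.39 (SE 0.032), or 1.31-fold, from 73.2 ± 1.62 to 97.4 ± 5.05 CPM (SD, n = 4). It was 0.42 within batch 1 and 0.35 within batch 2.

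The sestrins and Zmat3 gave overlapping groups. Sesn1 (chromosome 10, 41809935 to 41908424, plus strand), a relative of Sesn2 with the same brake on mTORC1, measured 41.9, 42.9, 35.4 and 37.8 CPM in scramble and 40.6, 45.2, 37.6 and 41.0 CPM with Klf4 siRNA (log2 fold change 0.01, SE 0.040). Sesn2 (chromosome 4, 132492032 to 132510501, minus strand) measured 196.3, 188.1, 223.5 and 227.4 CPM in scramble and 186.1, 183.5, 203.5 and 214.3 CPM with Klf4 siRNA (log2 fold change -0.04, SE 0.057). In Sesn2 the batch 2 scramble libraries were the highest. The sign of these small differences was not stable: it was kept in 16 of 18 alternative fits for Sesn2, in 14 for Sesn1 and in 17 for Zmat3. Zmat3 (chromosome 3, 32334792 to 32366014, minus strand), an RNA-binding zinc finger protein, measured 117.1, 116.6, 115.9 and 110.3 CPM in scramble and 118.6, 125.3, 117.2 and 107.8 CPM with Klf4 siRNA (log2 fold change 0.02, SE 0.040). Its lowest and highest libraries both had the Klf4 siRNA.

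Btg2 (chromosome 1, 134075170 to 134079120, minus strand) was higher in every Klf4 siRNA library, but unevenly. It measured 153.2, 134.7, 147.4 and 142.5 CPM in scramble and 175.7, 158.8, 163.7 and 225.1 CPM in Klf4 siRNA libraries. Klf4 siRNA replicate 4 lay far above the other 3, and the SD of the Klf4 siRNA group was 30.4 CPM against 7.80 CPM in scramble (n = 4 each). The log2 fold change was 0.30 (SE 0.14) with that library and 0.20 without it.

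**Figure D2:**
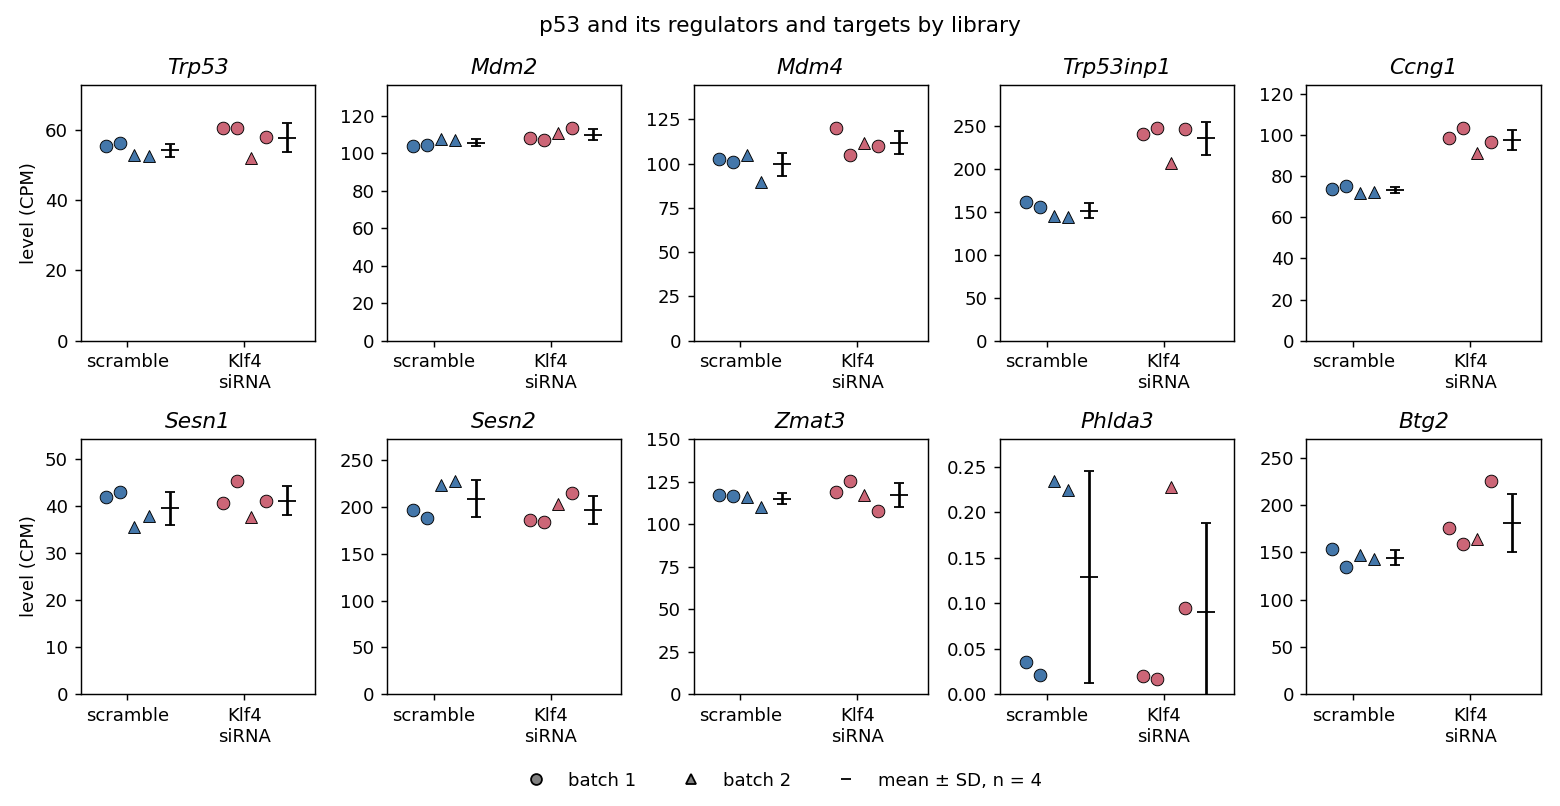
Level of each of the 10 genes in CPM by library, with the mean and SD (n = 4) of each treatment and the batch of each library marked. Trp53inp1 and Ccng1 separate the treatments by a wide gap, Btg2 has 1 high Klf4 siRNA library, and Phlda3 separates the batches.

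By edgeR's quasi-likelihood test over all 16333 tested genes, 2 of the 9 tested genes passed an adjusted p of 0.05, Trp53inp1 and Ccng1, both higher. The background was 11.7% of all genes in either direction with 4.88% higher and 6.81% lower. Groups without overlap, higher after Klf4 siRNA, were seen for Mdm4, Trp53inp1, Ccng1 and Btg2, against a background of 4.97%, and no gene had groups without overlap in the lower direction (background 5.55%). Because the choice of genes used this contrast, nothing is read from these counts. The median log2 fold change of the 9 genes was 0.06, against 0.00 over all tested genes. Without Klf4 siRNA replicate 4 the count was 4 of 9, with Btg2 higher and Sesn2 lower (log2 fold change -0.09) added.

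**Figure D3:**
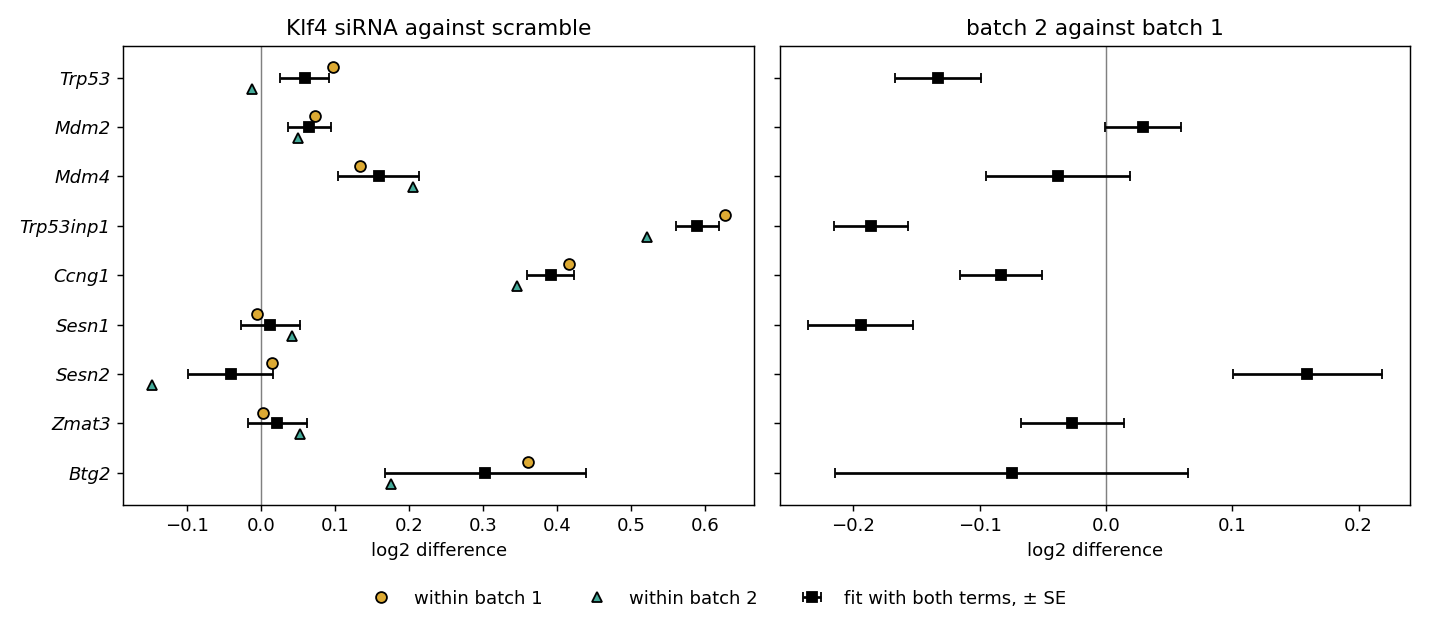
Log2 differences of the 9 tested genes with their standard errors, between treatments on the left (with the values within each batch) and between batches on the right. Trp53inp1 and Ccng1 lie apart on the left within both batches, and Sesn1, Trp53inp1 and Trp53 lie lowest on the right.

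The difference between batches did not enter the choice of the genes and was tested in the same fit, which adjusts it for treatment. Trp53, Trp53inp1 and Sesn1 were lower in batch 2, which is 3 of 9 genes against a background of 32.7% of all genes in either direction and 15.9% in the lower direction. The count was 5 of 9 without Klf4 siRNA replicate 4 or with library size alone, and 4 of 9 with no filter on low counts. Trp53 had a log2 difference of -0.13 (SE 0.034, edgeR, adjusted p = 0.0046), and its 3 batch 2 libraries, at 52.7, 52.4 and 52.1 CPM, lay below all 5 batch 1 libraries. Without Klf4 siRNA replicate 3 this difference did not pass (adjusted p = 0.181). Sesn1 had a log2 difference of -0.19 (SE 0.042, edgeR, adjusted p = 0.0011), its batches did not overlap, and it passed in 16 of 16 alternative fits. Trp53inp1 had a log2 difference of -0.19 (SE 0.030, edgeR, adjusted p = 4.99e-05), and within each treatment its batch 2 libraries were the lowest. It did not pass with Klf4 siRNA replicate 4 placed in batch 2 (adjusted p = 0.098) or with no term for treatment (adjusted p = 0.348). Sesn2 went the other way, with a log2 difference of 0.16 (SE 0.059, edgeR, adjusted p = 0.0725), and it passed in 8 of 16 alternative fits. Ccng1 had a log2 difference of -0.08 (adjusted p = 0.058), Mdm2 of 0.03 (adjusted p = 0.499), Mdm4 of -0.04 (adjusted p = 0.675), Zmat3 of -0.03 (adjusted p = 0.674) and Btg2 of -0.07 (adjusted p = 0.748), all by edgeR.

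Phlda3 (chromosome 1, 135766119 to 135769136, plus strand), which the filter on low counts left out of the fit, differed between the batches in its raw counts. There were 2, 1, 15 and 13 counts in scramble replicates 1 to 4 and 1, 1, 12 and 5 counts in Klf4 siRNA replicates 1 to 4. The 3 libraries with the most counts were the batch 2 libraries, and Klf4 siRNA replicate 4 came next. The mean was 0.229 ± 0.00487 CPM in batch 2 (SD, n = 3) and 0.0378 ± 0.0324 CPM in batch 1 (SD, n = 5), with an exact two-sided permutation p of 0.0179, the smallest that the 56 arrangements allow. This p states only that the batches did not overlap, and among all tested genes 15.8% had every batch 2 library above batch 1 and 13.6% every one below. In the fit with no filter, over 31278 genes, the log2 difference between batches was 2.56 (SE 0.53, edgeR, adjusted p = 2.07e-05). The log2 fold change between treatments in that fit was 0.14.

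Whether the effect of the siRNA differed between batches was tested as an interaction, which rests on the single Klf4 siRNA library of batch 2. None of the 16333 genes passed by edgeR, where 540 genes had an unadjusted p under 0.05, or by DESeq2, where 176 had. Among the 9 tested genes here the smallest unadjusted p was 0.0805, that of Trp53inp1, and 0 were under 0.05 by either tool.

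Other genes of the pathway were taken from lists of p53 regulators, of p53 targets by function and of relatives of the 10 genes. Among the 28 regulators, all tested, 0 rose and 2 fell, Trp53bp2 and Ppp1r13l, which belong to the ASPP family of p53-binding proteins. The other ASPP gene of the list, Ppp1r13b, differed by 0.0024 on the log2 scale (edgeR, adjusted p = 0.979). Trp53bp2, which encodes ASPP2, a protein that promotes the death function of p53, measured 18.9, 18.7, 23.1 and 24.0 CPM in scramble and 17.5, 15.8, 20.4 and 15.9 CPM with Klf4 siRNA (log2 fold change -0.20, SE 0.048, edgeR, adjusted p = 0.0095). Its groups overlapped across batches but not within either batch. Ppp1r13l, which encodes the inhibitory relative iASPP, measured 22.9, 22.7, 20.3 and 24.6 CPM in scramble and 17.6, 20.9, 14.9 and 15.99 CPM with Klf4 siRNA (log2 fold change -0.42, SE 0.105, edgeR, adjusted p = 0.040). Klf4 siRNA replicate 2 was the library that overlapped the scramble group. The share called was 7.14%, against 11.7% of all genes, and the median log2 fold change was -0.01. Trp53bp2 passed in 12 of 18 alternative fits and Ppp1r13l in 11. The count of regulators ran from 0 without scramble replicate 1 to 4 without scramble replicate 4, and was 1 without scramble replicate 2 or without Klf4 siRNA replicate 1, 3 or 4. Without Klf4 siRNA replicate 3, and in batch 1 alone, neither Trp53bp2 nor Ppp1r13l was among the genes called. Cdkn2a, whose locus encodes the Mdm2 inhibitor Arf and the Cdk inhibitor Ink4a, which gene-level counts cannot separate, went from 159 ± 5.86 to 154 ± 7.57 CPM (SD, n = 4) and did not pass (log2 fold change -0.07, edgeR, adjusted p = 0.121).

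Of the 12 listed p53 targets in cell cycle arrest and DNA repair, 2 rose and 0 fell (16.7% called, against 11.7% of all genes), with a median log2 fold change of 0.04. Psrc1, a microtubule-binding protein, rose from 17.03, 17.7, 16.4 and 18.5 CPM to 22.1, 19.7, 20.4 and 20.9 CPM (log2 fold change 0.25, SE 0.053, edgeR, adjusted p = 0.0030). Gtse1, a microtubule-associated protein of G2 cells that itself lowers p53, rose from 50.3, 50.3, 51.0 and 53.9 CPM to 55.5, 54.0, 55.4 and 61.8 CPM (log2 fold change 0.15, SE 0.042, edgeR, adjusted p = 0.029). Neither gene had overlapping groups. Psrc1 passed in 18 of 18 alternative fits and Gtse1 in 13, and 1 of the 12 genes passed without scramble replicate 1, 2 or 3 or without Klf4 siRNA replicate 1. Cdkn1a, which encodes p21, the Cdk inhibitor through which p53 arrests the cycle, measured 84.6, 87.0, 117 and 131 CPM in scramble and 105, 117, 131 and 121 CPM in Klf4 siRNA libraries. Its groups overlapped, and the log2 fold change of 0.30 (SE 0.093) did not pass (edgeR, adjusted p = 0.117). Over the 18 alternative fits it ran from 0.18 to 0.42 and passed in 5, among them batch 1 alone, library size alone and DESeq2, with a smallest adjusted p of 0.00025. It was higher in batch 2 (log2 difference 0.39, edgeR, adjusted p = 0.026), and its difference between treatments was 0.41 within batch 1 and 0.085 within batch 2. The interaction for Cdkn1a had an unadjusted p of 0.0124 and an adjusted p of 0.999 by edgeR.

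Of the 14 listed targets in cell death, 11 were tested, 1 rose and 0 fell (9.09% called, against 11.7% of all genes), with a median log2 fold change of 0.01. The gene that rose was Ei24, an endoplasmic reticulum membrane protein of the autophagy machinery, from 53.9, 52.4, 51.1 and 53.7 CPM to 61.2, 64.7, 59.7 and 64.2 CPM (log2 fold change 0.23, SE 0.033, edgeR, adjusted p = 6.81e-05). Its groups did not overlap, and it passed in 18 of 18 alternative fits. Annotations on the opposite strand overlap exons of Ei24 and Cdkn1a, 1 on the same strand overlaps exons of Bax, and the use of strand in counting is not given in the sources used here. Bax, which opens the outer mitochondrial membrane in apoptosis, differed by 0.01 on the log2 scale (SE 0.032, edgeR, adjusted p = 0.953). The death genes Pmaip1, at 0 counts in every library, Fas, at 2 to 10 counts, and Tnfrsf10b, at 1 to 6 counts, were too sparse to test.

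Of the 19 listed targets in metabolism and signalling, 16 were tested, 2 rose and 1 fell (18.75% called, against 11.7% of all genes), with a median log2 fold change of 0.02. Dcxr, a carbonyl and xylulose reductase, went from 5.28, 4.95, 5.96 and 6.58 CPM to 6.34, 6.45, 7.20 and 6.11 CPM (log2 fold change 0.26, SE 0.073, edgeR, adjusted p = 0.023). Its groups overlapped across batches. Fbxw7, the substrate-binding part of a ubiquitin ligase for cyclin E and Myc, rose from a mean of 18.75 to a mean of 20.54 CPM (log2 fold change 0.15, SE 0.046, edgeR, adjusted p = 0.040), with no overlap. Prkab1, a subunit of the energy sensor AMPK, fell from 82.9, 83.5, 83.3 and 85.0 CPM to 76.9, 74.0, 76.5 and 82.1 CPM (log2 fold change -0.11, SE 0.033, edgeR, adjusted p = 0.032). The groups of Prkab1 did not overlap either, but Klf4 siRNA replicate 4 was close to the scramble range. None of the 3 passed in all alternatives: Dcxr passed in 9 of 18, Prkab1 in 7 and Fbxw7 in 5. The count of 3 fell to 0 without scramble replicate 1, 2 or 3 or without Klf4 siRNA replicate 1 or 3, and to 1 without Klf4 siRNA replicate 2. Dram1, at 5 to 11 counts, Gdf15, at 1 to 7 counts, and Lif, at 0 to 5 counts, were too sparse to test.

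Over the 3 target lists together, 6 of 39 tested genes passed, which is 15.4% against 11.7% of all genes, 5 of them higher and 1 lower. Their median log2 fold change was 0.02, against 0.00 over all genes, with 23 values positive and 16 negative.

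The relatives of the 10 genes, such as the other sestrins and members of the Btg and Tob family, gave 1 lower and 0 higher among 13 tested of 17 listed (7.69% called, against 11.7% of all genes), with a median log2 fold change of -0.00. The gene that fell was Tob2, like Btg2 an antiproliferative partner of the CCR4-NOT complex, from 81.9, 87.9, 63.4 and 64.5 CPM to 67.8, 70.4, 52.6 and 64.6 CPM (log2 fold change -0.31, SE 0.034, edgeR, adjusted p = 2.95e-06). Its groups overlapped, since Tob2 was also lower in batch 2 (log2 difference -0.39, edgeR, adjusted p = 3.14e-08), but within each batch every Klf4 siRNA library lay below every scramble library. With no batch term it did not pass (adjusted p = 0.51). An annotation on the opposite strand overlaps exons of Tob2 as well. Trp53inp2, the close relative of Trp53inp1, differed by 0.08 on the log2 scale (edgeR, adjusted p = 0.061), Sesn3 of -0.09 (adjusted p = 0.361) and Ccng2 of 0.05 (adjusted p = 0.712), and none of them passed. The relatives Trp63, Zmat4, Phlda2 and Btg4 were too sparse to test. Without scramble replicate 4 the count of relatives was 2.

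**Figure D4:**
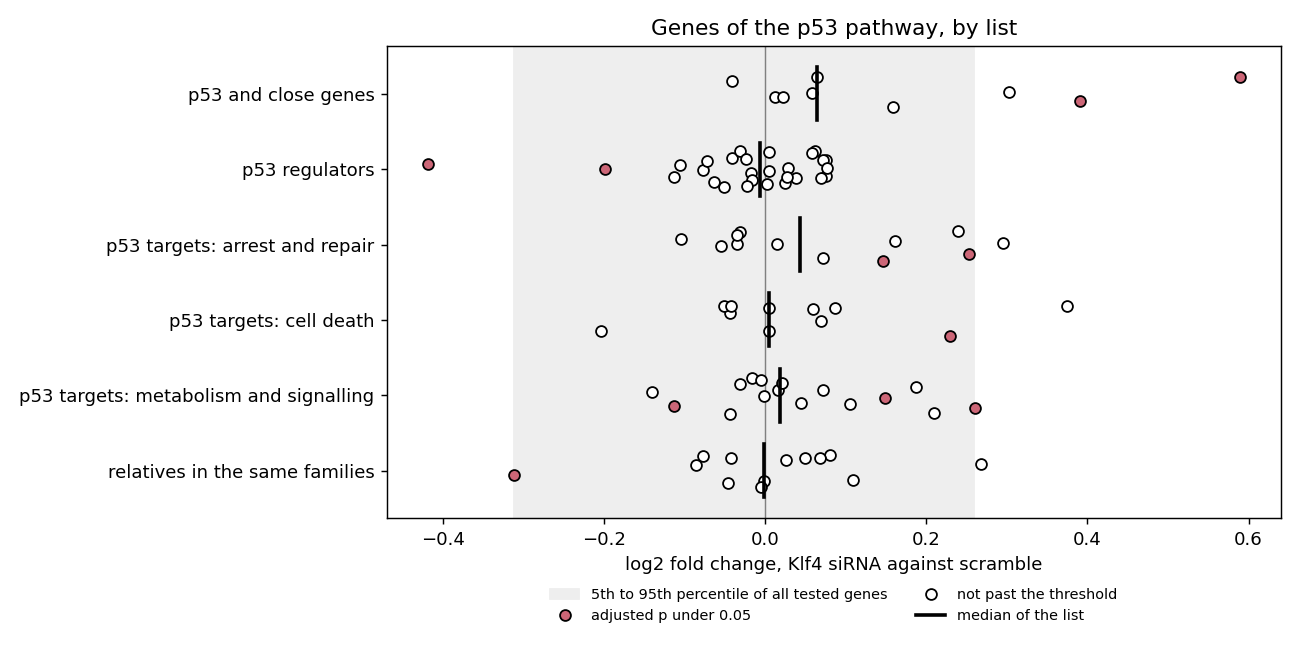
Log2 fold change after Klf4 siRNA of each tested gene, by list, with the median of each list as a bar and the 5th to 95th percentile of all tested genes shaded. Filled points passed an adjusted p of 0.05, and the medians of the lists lie close to 0.

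The genes whose pattern over the 8 libraries was most like that of Trp53, Trp53inp1 or Ccng1, leaving out the 10 genes themselves, were found by Pearson's r of log2 CPM among 10380 genes with a mean of at least 5 CPM. The libraries share treatment and batch, so these are descriptions over 8 points. A gene picked for its likeness to Trp53inp1 or Ccng1 tends to share their rise through that choice, so its fold change is no separate result. For Trp53 they were Kdm5c (r = 0.988), Tspan2 (r = 0.987) and Poldip3 (r = 0.979). All 3 were lower in batch 2 and none passed for treatment, with log2 fold changes of 0.05, 0.12 and 0.06. For Trp53inp1 they were Sema6d (r = 0.993), Calu (r = 0.991) and Polr3e (r = 0.989), with log2 fold changes of 0.31, 0.39 and 0.15 after Klf4 siRNA. For Ccng1 they were Calu (r = 0.990), Tmem170b (r = 0.988) and Ccne2 (r = 0.987), with log2 fold changes of 0.39, 0.55 and 0.32. Between Trp53inp1 and Ccng1 themselves r was 0.988, above that of Ccne2. The choice of the genes used the rise of Trp53inp1 and Ccng1, so nothing is read from this r. Ccne2, which encodes cyclin E2, is also a neighbour of Trp53inp1, at 16971 bases from it on chromosome 4 (11191351 to 11204779, plus strand). Ccne2 measured 61.5, 62.9, 59.7 and 57.8 CPM in scramble and 79.3, 83.2, 71.5 and 74.2 CPM in Klf4 siRNA libraries. Its groups did not overlap (background 4.97% of all tested genes in the higher direction). Because Ccne2 was picked for its likeness to Ccng1, nothing is read from this.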

How the data were processed

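The 10 genes and the pathway lists were chosen with earlier results of these data known. The authors deposited whole-number counts per gene for 8 libraries. The submitters' processing notes name FastQC, STAR, featureCounts, DESeq2 and build mm10, and the design text names edgeR with batch correction. The annotation and the use of strand are not given in the sources used here. All 55536 identifiers matched GENCODE release 21 (GRCm38), which gave positions and exon lengths. Per the labels every sample is the cell line, although the extraction text speaks of islets.

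Genes were filtered with filterByExpr by treatment (16333 tested) and scaled with TMM (factors 0.964 to 1.02). The model, with terms for batch and treatment, was fitted by robust quasi-likelihood in edgeR 4.0.16 (R 4.3.3) and left 5 residual degrees of freedom. Two-sided p-values were Benjamini-Hochberg adjusted over all tested genes, with a threshold of 0.05. SEs were derived from the log2 fold change and its F statistic. Within-batch differences and r used log2 CPM with a prior count of 2. Alternatives included DESeq2 1.42.0 and limma-voom (3.58.1), other filters and scalings, the batch term, a replicate block and each library left out. Without molecular identifiers, counts include PCR duplicates. No pair of libraries of the same treatment agreed within sampling noise (chi-square per degree of freedom at least 10.3).

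The genes named were Klf4, the 10 genes, up to 4 called genes per list by adjusted p, Cdkn1a, Bax, Cdkn2a, listed genes too sparse to test, and the 3 genes most like each of Trp53, Trp53inp1 and Ccng1. Ppp1r13b, Trp53inp2, Sesn3, Ccng2 and the relatives named under the other observations were added after their values were seen. On simulated counts for the treatment comparison (16135 genes), 100% of log2 changes of 1 and 86% of those of 0.3 were recovered, and 13 of 199 calls were false.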

Additional observations from a re-analysis of the deposited data

Results flagged for a closer look

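Trp53 had small differences between treatments, of opposite sign in the batches. In batch 1 all 3 Klf4 siRNA libraries lay above both scramble libraries (log2 difference 0.10), whereas in batch 2 the only Klf4 siRNA library, at 52.1 CPM, lay just below the scramble libraries, at 52.7 and 52.4 CPM (log2 difference -0.01). The test of this difference between batches, the interaction in edgeR, had an unadjusted p of 0.114 and an adjusted p of 0.999. No library lay apart from the rest of its group of 4 by Dixon's criterion in any of 40 groups examined, where chance alone flags about 1 in 20.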

How the results depend on the processing

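The count of the 9 genes for treatment, 2, from which nothing is read because the choice used this contrast, was 3 by DESeq2 and with no filter and ran from 2 to 4 with 1 library left out. Over all genes 1909 were called for treatment, 409 with no batch term, 1232 in batch 1 alone and 934 to 2021 with 1 library left out. Whether the replicate numbers pair the libraries was not settled. The correlations of the deviations were 0.49, 0.42, 0.72 and -0.34 for numbers 1 to 4, and 5 of 8 libraries were closest to their own number. Libraries of the same number share a batch for numbers 1 to 3 but not for number 4, so pairing and batch cannot be told apart. With a replicate block 1220 genes were called, among regulators 1, among metabolic targets 0 and among relatives 0. With no batch term the counts were 0 for regulators, 1 for arrest and repair, 0 for metabolism and 0 for relatives. With Klf4 siRNA replicate 4 placed in batch 2 they were 1 for regulators, 0 for metabolism and 0 for relatives. In batch 1 alone they were 0 for metabolism and 2 for relatives, and relatives also had 2 by DESeq2, by limma-voom and with a mean of at least 5 CPM. With 1 library left out the counts ran from 0 to 4 for regulators, 1 to 3 for arrest and repair, 1 to 1 for cell death, 0 to 3 for metabolism and 1 to 2 for relatives. For batch, 3 of the 10 genes were called, 5 with library size alone, 5 with no filter and 3 to 6 with 1 library left out, of which 6 without Klf4 siRNA replicate 4. The counts of 5 with no filter and of 6 include Phlda3. With 1 library left out, Phlda3 passed the filter on low counts only where a batch 1 library was removed, that is through the batch 2 libraries in which it is high, so its calls there carry no weight, and 3 to 5 of the other 9 genes were called. Over all genes 5343 were called for batch, 2882 with Klf4 siRNA replicate 4 placed in batch 2, and 3843 to 6210 with 1 library left out. Among the 10 genes the interaction called 0 to 0 with 1 library left out and could not be fitted without Klf4 siRNA replicate 3. Small values changed sign. The treatment difference of Sesn2 ran from -0.093 to 0.018, that of Sesn1 from -0.016 to 0.061 and that of Zmat3 from -0.0061 to 0.058 over 18 alternatives. In addition the batch difference of Mdm2 was -0.0083 with library size alone, that of Mdm4 ran from -0.086 to 0.017 with 1 library left out, and that of Btg2 from -0.14 to 0.0098, and was 0.11 with Klf4 siRNA replicate 4 placed in batch 2. For Bax the treatment difference was -0.00021 in batch 1 alone and ran from -0.013 to 0.021 with 1 library left out. The cause of these changes was not tested.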

Other observations

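Among the 13 tested relatives of the 10 genes, 7 passed for batch, 3 higher and 4 lower in batch 2, against 32.7% of all genes. The genes named next were chosen after their values were seen. Phlda1, a relative of Phlda3, was higher in batch 2 (46.2, 47.1 and 43.6 CPM against 33.6 to 38.2 CPM in batch 1, log2 difference 0.33, edgeR, adjusted p = 1.65e-05). Ccng2, a relative of Ccng1, was lower in batch 2 (10.3, 10.7 and 10.9 CPM against 12.4 to 14.3 CPM, log2 difference -0.33, edgeR, adjusted p = 0.000504). Zmat4, a sparse relative of Zmat3, measured 0.375, 0.380 and 0.361 CPM in batch 2 and at most 0.0865 CPM in batch 1, which is the same order of batches as in Phlda3.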
